A study of Arabidopsis thaliana with 126 samples.

Results

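The data described here are the RNA-seq profiles of 3-day-old etiolated *Arabidopsis* seedlings that carry both *ein6-1* and *een-1*, set against seedlings that carry *ein6-1* alone, both kept in hydrocarbon-free air. The 4 libraries, 2 of *ein6-1 een-1* and 2 of *ein6-1*, were chosen by their genotype and treatment labels from 28 RNA libraries in a series of 126 samples. Because both groups lack functional EIN6, the comparison asks what the loss of EEN changes where EIN6 is already lost. The study traced the ethylene (ET) insensitivity of a mutant line to lesions in both genes, and profiled RNA, histone marks, the histone variant H2A.Z and DNA methylation.

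Both alleles arose by fast-neutron mutagenesis in the L*er* (Landsberg *erecta*) accession, and each is represented by 1 mutant line. In *ein6-1*, *REF6* has lost a few bases of an exon and its reading frame ends early. The *een-1* allele is an inversion near the end of chromosome 4 that joins the first exons of *AQI* to *EEN* and shifts the *EEN* reading frame, so the difference between the groups includes the loss of intact *AQI*. How the single mutants were derived from the original line is not described in the sources used. Other lesions that may differ between the lines cannot be told apart from the loss of EEN. The other groups used below are *een-1* and L*er* in air, *ein6-1 een-1* and *ein6-1* after 4 hr of ET, and *een-2* (a T-DNA insertion in *EEN*) and Col-0 in air, each with 2 libraries of whole 3-day-old dark-grown seedlings. L*er* after ET and the ET-insensitive mutant *ein2-45* in air define gene lists and, with *een-1* after ET, give levels for context.

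EIN6, better known as REF6, is a histone demethylase that removes the repressive mark H3K27me3, which Polycomb complexes deposit. EEN is the plant relative of IES6, which belongs to the INO80 remodeler, a complex linked in yeast to the eviction of H2A.Z. EIN2 is the membrane protein that carries the ET signal from the receptors toward the transcription factors EIN3 and EIL1, and seedlings without it do not respond to ET.

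Expression is given as TPM (transcript abundance scaled to a fixed total in every library) divided by a factor per library, called rescaled TPM, since the rRNA share differed between libraries (3.34 and 6.16% of TPM in *ein6-1 een-1*, 6.27 and 12.2% in *ein6-1*). Differences are log2 fold changes of rescaled TPM plus 1, tested with limma over 20592 genes. A gene is called higher or lower when its Benjamini-Hochberg adjusted p is below 0.05. The correlation between the replicates of a group was 0.974 to 0.990 across genes. One library, *ein6-1* ET replicate 2, stood apart with 30.3% rRNA and enters only the comparison after ET and the shared estimate of spread. Read depth is unknown, because TPM does not retain it. The markers set for etiolated seedlings, *PHYA*, *HLS1*, *PORA* and *PORB*, were present in all 4 libraries. *PHYA*, the phytochrome of dark-grown seedlings, had 213 and 236 rescaled TPM in *ein6-1 een-1* against 205 and 197 in *ein6-1*. *HLS1* had 7.29 and 6.16 against 5.04 and 6.53. *PORA* and *PORB* were lower in *ein6-1 een-1* (log2 fold changes -1.56 and -2.07) and seed genes were higher, as described below. The summed level of 4 flower genes stayed between 0.920 and 1.54 in these 4 libraries.

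*EIN2* (*At5g03280*, chromosome 5, 787428 to 793404 on the plus strand of TAIR10.1) was among the genes that fell most clearly. It had 8.14 and 7.59 rescaled TPM in *ein6-1 een-1* against 64.7 and 59.3 in *ein6-1*. Both double mutant libraries lay far below both *ein6-1* libraries, and the log2 fold change was -2.83 (SE 0.20, adjusted p = 5.2e-08, limma). With EIN6 intact the same allele had no such difference: *EIN2* stood at 48.1 and 43.0 in *een-1* against 53.9 and 56.7 in L*er* (log2 fold change -0.28, adjusted p = 0.32). The difference between these effects was -2.55 on the log2 scale (SE 0.28, adjusted p = 1.5e-05).

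REF6 binds chromatin through zinc fingers that read an 8-base motif, written here as CTCTGCTC, CTCTGCTT, CTCTGTTC or CTCTGTTT. On either strand, the first 1500 bases of *EIN2* hold it at 2 places, shown because *EIN2* is the gene on which the study centres. The sequences are from the TAIR10.1 Col-0 genome (RefSeq), not from L*er*, run 5′ to 3′ on the plus strand, and have the motif in capitals. The first lies in the intron of the 5′UTR and the second in a coding exon.
EIN2, chr5:787612-787641: aaaccctaatcCTCTGTTTttttttttatt
EIN2, chr5:788744-788773: ggtggcaattaCTCTGCTTttcaattttgc
The motif is common: 9759 of 20169 tested genes (48.4%) hold it in a window of that length. A match is a description of letters and not of binding.

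The genes hit by the alleles were examined as a check of the labels, which only *AQI* allowed. *AQI* (*At4g38220*, chromosome 4, 17925180 to 17927188), which the *een-1* inversion splits, had 9.50 and 12.1 rescaled TPM in *ein6-1 een-1* against 132 and 117 in *ein6-1* (log2 fold change -3.41, SE 0.13, adjusted p = 3.7e-10, limma). It was as low in *een-1* (13.2 and 12.5) beside L*er* (111 and 109), so each library carries the *AQI* level its label calls for. *EEN* itself (*At4g38495*, chromosome 4, 18007357 to 18008071) had 24.6 and 30.3 rescaled TPM in *ein6-1 een-1* against 31.2 and 21.0 in *ein6-1* (log2 fold change 0.09, adjusted p = 0.79), but since the inversion breaks in its 5′UTR and leaves the coding exons whole this level checks nothing. *REF6* (*At3g48430*, chromosome 3, 17935256 to 17940792) had 9.03 and 8.96 against 10.7 and 9.97 (log2 fold change -0.18, adjusted p = 0.55). Both groups carry *ein6-1*, so this comparison does not check that label. Against L*er*, at 5.82 and 6.27, *ein6-1* did not pass (0.69, adjusted p = 0.074, limma).

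**Figure D1:**
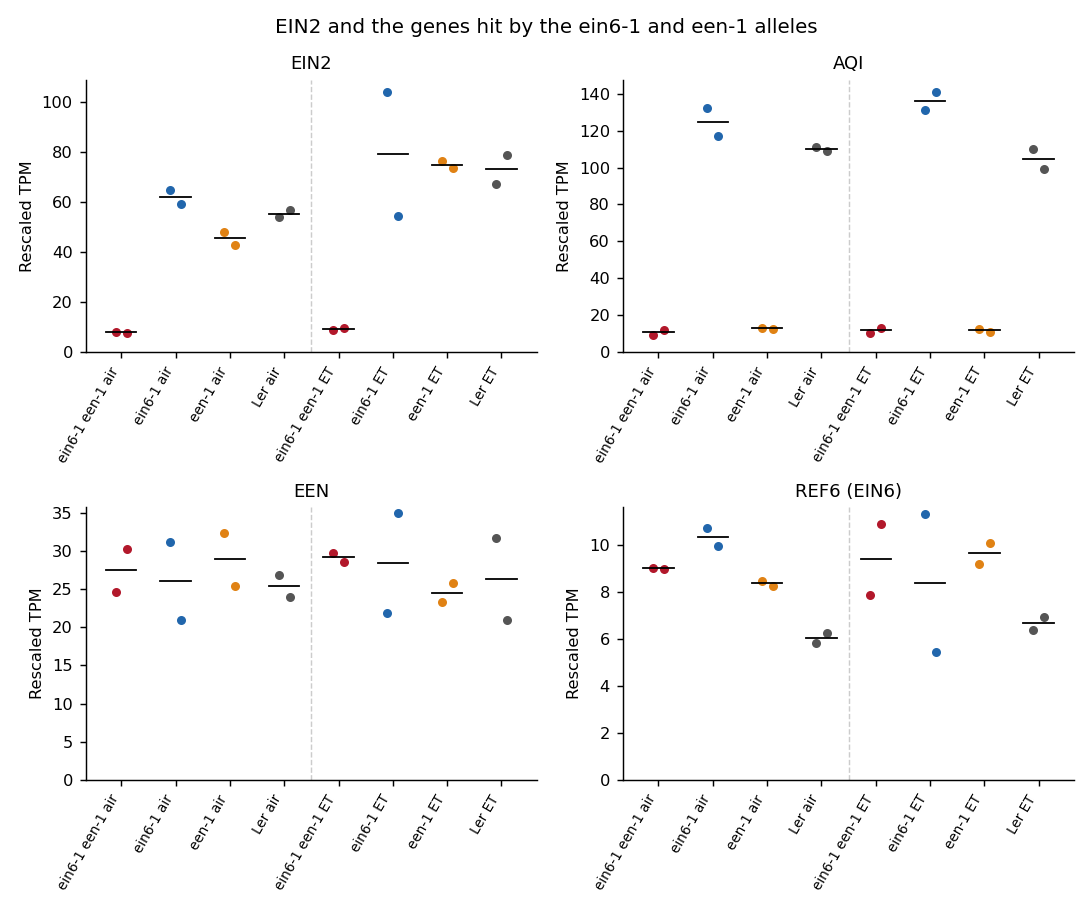
Rescaled TPM of *EIN2*, *AQI*, *EEN* and *REF6* (vertical axes, linear from 0) in each library of the double mutant, *ein6-1*, *een-1* and L*er*, in air on the left and after 4 hr of ET on the right of each panel. Points are libraries and bars are means of 2. *EIN2* is below 10 in the 4 *ein6-1 een-1* libraries only, whereas *AQI* is below 14 wherever *een-1* is present.

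Of 20592 tested genes, 3491 were higher and 3859 lower in *ein6-1 een-1* than in *ein6-1*, 35.7% in all (17.0% higher, 18.7% lower). The median log2 fold change was 0.74 among the higher genes and -0.69 among the lower ones, and -0.003 over all tested genes. At least 4-fold changes on this scale were found for 298 higher and 154 lower genes, and at least 16-fold changes for 99 higher and 10 lower genes. With TPM as deposited, not rescaled, the median of all genes shifts by 0.162 and the split is 3693 higher and 1607 lower. Leaving out *ein6-1* air replicate 1 reduced the calls to 4319 (1995 higher, 2324 lower).

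Among the 10 largest increases, *SESA5*, *CRA1*, *CRU3* and *M17* encode seed storage or late embryogenesis proteins, described with their list, and *PAP85* encodes a vicilin-like seed storage protein. *LCR67* (also called *PDF1.1*), which encodes a defensin, had 3096 and 3941 rescaled TPM in *ein6-1 een-1* against 13.7 and 10.8 in *ein6-1* (log2 fold change 8.05, SE 0.43). *HSP17.6A*, a small heat-shock protein, had 339 and 449 against 0.779 and 0.304 (8.00, SE 0.39). *XTH25*, a cell-wall xyloglucan endotransglucosylase, had 205 and 233 against 0.210 and 0.336 (7.43, SE 0.29). *HSD1*, a steroid dehydrogenase of seed oil bodies, and *AT1G14950*, for which no role is given here, complete the set. The rule that picked these 10 required both *ein6-1 een-1* libraries to lie above both *ein6-1* libraries. Of all tested genes, 69.8% show such an order in one direction or the other.

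Among the 10 largest decreases, *CAB1*, *CAB3*, *LHCA3* and *PSAG* encode light-harvesting and photosystem proteins. *CA2*, a carbonic anhydrase, had 7.90 and 14.0 rescaled TPM in *ein6-1 een-1* against 181 and 192 in *ein6-1* (log2 fold change -4.02, SE 0.31), and *FSD1*, an iron superoxide dismutase, had 1.16 and 2.19 against 33.7 and 72.2 (-4.26, SE 0.38). *AZI1*, a lipid-transfer-like protein of systemic immunity, had 4.20 and 3.93 against 189 and 87.3 (-4.68, SE 0.31). *AT5G57760* had 0.530 and 1.12 against 39.7 and 48.0 (-4.63, SE 0.21), and *AT2G05510*, which is named for its rank only, had 5.29 and 4.81 against 114 and 119. The snoRNA gene *AT4G39366* is listed at 0 in both double mutant libraries against 290 and 70.5 in *ein6-1*, but is also listed at 0 in L*er*, and its adjusted p of 0.027 was above 0.05 in 4 alternatives, at 0.054 to 0.16.

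Seed storage and late embryogenesis genes rose together and furthest. The list holds 25 genes for the cruciferin and albumin (SESA) storage proteins, the oleosins that coat oil bodies, the LEA proteins that protect drying embryos, and the seed regulators, and 21 of them could be tested. Of these, 19 were higher in *ein6-1 een-1* and 0 lower, with a median log2 fold change of 5.34. Over all tested genes, 17.0% were higher and 18.7% lower. Their summed level was 16757 and 18625 rescaled TPM in *ein6-1 een-1* (1.93 and 2.02% of all TPM) against 450.8 and 451.5 in *ein6-1*. The groups did not overlap for any of these 19 genes, which were picked as called, and did not overlap for 69.8% of all tested genes.

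The largest levels were those of storage proteins. *CRU3*, a cruciferin, had 5420 and 6064 rescaled TPM in *ein6-1 een-1* against 28.5 and 22.7 in *ein6-1* (log2 fold change 7.76, SE 0.32, adjusted p = 5.1e-10). The cruciferin *CRA1* (listed as *CRU1*) had 3770 and 4188 against 12.4 and 10.8 (8.31, SE 0.32), and the albumin *SESA5* had 1742 and 1947 against 5.59 and 3.22 (8.45, SE 0.47). In all 3 genes both double mutant libraries lay far above both *ein6-1* libraries.
*SESA1* to *SESA4* are near-identical neighbours on chromosome 4, between which reads may have been split in either way, and their log2 fold changes were 2.65 to 5.60. The oleosin *OLEO1* had 383 and 447 against 1.77 and 2.19 (7.12, SE 0.40), *OLEO2* and *OLEO4* also rose, and *OLEO3* had 93.9 and 95.5 against 90.5 and 102 (-0.02, adjusted p = 0.94).

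The LEA genes rose except 1. *EM6*, an Em protein of dry seeds, had 1295 and 1502 rescaled TPM in *ein6-1 een-1* against 12.2 and 11.4 in *ein6-1* (log2 fold change 6.77, SE 0.31), and *LEA4-5* had 870 and 825 against 84.5 and 91.7 (3.25, SE 0.20). *LEA14* had 124 and 105 against 143 and 134 (-0.28, adjusted p = 0.16). Among the regulators, *ABI3*, a B3-domain activator of seed maturation, had 37.0 and 32.9 against 1.45 and 1.89 (3.76, SE 0.25, adjusted p = 3.1e-08). *ABI5*, a bZIP factor of abscisic acid (ABA) signaling in seeds, had 48.9 and 51.0 against 6.31 and 6.47 (2.79, SE 0.22). The early regulators *FUS3*, *LEC1*, *LEC2* and *DOG1* did not reach the minimum for testing, at 0.479 rescaled TPM or less in all 4 libraries, and *LEC1* is listed at 0 in each.

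ABI3 and related B3 factors bind the RY element and bZIP factors bind the G-box, so promoters of the storage genes are shown for both. From 250 bases before to 50 after the annotated start, the RY element CATGCATG was found in 4 of the 19 higher seed genes (21.1%), against 154 of 20169 tested genes (0.764%). The G-box CACGTG was found in 10 of the 19 (52.6%), against 1820 of 20169 (9.02%). Both motifs read the same on the 2 strands. The RY elements of *SESA3* and *SESA5*, in capitals and on the gene's strand, are:
SESA3, chr4:13611698-13611727 (+): ccacacacactCATGCATGcatgcattctt
SESA5, chr5:22239380-22239409 (-): caagtcaagagCATGCATGctgttgtagat
The *SESA3* run repeats, so that overlapping matches occur there. The first G-boxes of *SESA1*, *SESA3* and *SESA5* start 65, 67 and 68 bases before the gene, in capitals:
SESA1, chr4:13607252-13607281 (+): catgtattcttaCACGTGaactccatgcaa
SESA3, chr4:13611717-13611746 (+): catgcattcttaCACGTGattgccatgcaa
SESA5, chr5:22239238-22239267 (-): tcatgcttattaCACGTGaatgccatgcaa
All 3 windows end in the letters ccatgcaa. No test was made of these shares, and nothing is read from them about any factor.

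The other genotypes set this rise in context. The summed seed list was 2310 and 4738 rescaled TPM in *een-1* against 3674 and 3453 in L*er*, and 517.3 and 758.2 in *ein6-1* after ET, so *ein6-1* lies below and *ein6-1 een-1* above the wild type. Against L*er*, 18 of 21 seed genes were lower in *ein6-1* (0 higher), where 4.10% of tested genes were lower and 2.64% higher. In the double mutant 17 were higher and 1 lower than in L*er*, where 17.4% were higher and 19.8% lower. These comparisons share libraries with the one described here and with each other. In *een-1* against L*er*, 1 was higher and 2 lower (10.7% and 14.0% of all tested genes), with 473 and 1024 rescaled TPM of *CRA1* in *een-1* against 788 and 734 in L*er*.

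**Figure D2:**
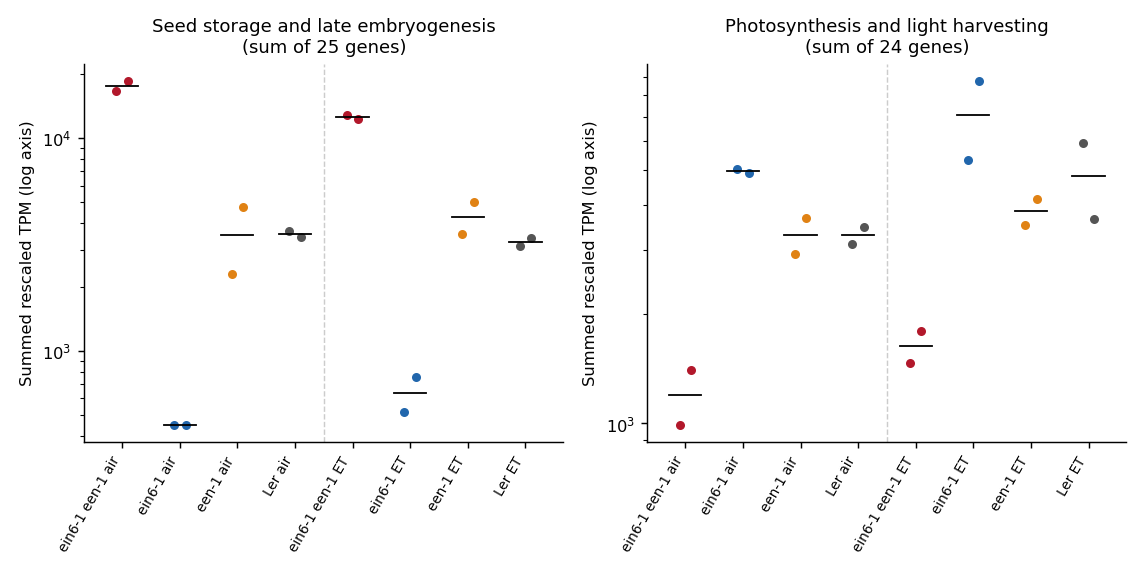
Summed rescaled TPM (log axis) of 25 seed genes and of 24 photosynthesis genes in each library of the double mutant, *ein6-1*, *een-1* and L*er* in air (left of the dashed line) and after 4 hr of ET (right). Points are libraries and bars are means of 2. The seed sum is 16757 and 18625 in *ein6-1 een-1* air libraries against 450.8 and 451.5 in *ein6-1*, and the photosynthesis sum is 992.3 and 1407 against 5009 and 4886.

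Photosynthesis genes fell as a block. All 24 tested genes for light-harvesting proteins, photosystem subunits and Rubisco were lower in *ein6-1 een-1*, with a median log2 fold change of -2.87, beside 18.7% of all tested genes. Their sum was 992.3 and 1407 rescaled TPM in *ein6-1 een-1* against 5009 and 4886 in *ein6-1*. *CAB1* (*LHCB1.3*), a chlorophyll-binding antenna protein, had 6.30 and 13.0 against 532 and 306 (log2 fold change -5.32, SE 0.36, adjusted p = 4.2e-08), though its near-identical neighbours *CAB2* and *CAB3* may share reads with it. The photosystem I gene *LHCA3* had 3.66 and 7.07 against 101 and 98.5 (-4.04, SE 0.27), and *PSAG* had 6.4 and 10.5 against 155 and 140 (-4.01, SE 0.25). *RBCS1A*, the most abundant member, had 652 and 919 against 1678 and 1837 (-1.18, SE 0.25). Whole seedlings were sampled, so fewer cells of a type and less RNA per cell cannot be told apart.

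Chlorophyll synthesis followed the same direction, with 11 of 13 tested members lower and 0 higher (median -1.20), beside 18.7% and 17.0% of all tested genes. *GUN5* (*CHLH*), a subunit of magnesium chelatase, had 1.80 and 2.38 rescaled TPM in *ein6-1 een-1* against 30.5 and 28.6 in *ein6-1* (log2 fold change -3.31, SE 0.19, adjusted p = 7.4e-09). *PORB*, a protochlorophyllide reductase, had 152 and 222 against 711 and 839 (-2.07, SE 0.19), and *PORA*, the form typical of etiolated tissue, had 186 and 258 against 567 and 737 (-1.56, SE 0.23). *GLK2*, an activator of plastid genes, had 9.82 and 14.2 against 21.3 and 17.8 (-0.67, SE 0.16). In *een-1* against L*er*, 0 of the 24 photosynthesis genes were called, and 5 of the 13 chlorophyll genes were higher, as were 10.7% of all tested genes. The seed list moved with both lists in the opposite direction, as given above, and its part in these differences was not tested.

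Of 22 genes for ET perception and signaling, 13 were lower in *ein6-1 een-1* (59.1%, beside 18.7% of all tested genes) and 2 higher (17.0% of all), with a median of -0.64. Without rescaling, 8 were lower. Among the receptors, *ETR2* had 2.94 and 2.70 rescaled TPM against 13.2 and 12.4 in *ein6-1* (log2 fold change -1.86, SE 0.16, adjusted p = 3.4e-07), *ERS2* fell by 1.24 and *ERS1* by 0.90 on the log2 scale. *CTR1*, the kinase that holds EIN2 inactive, had 22.5 and 20.8 against 40.6 and 35.4 (-0.78, SE 0.15). Downstream, *EIL1* had 35.0 and 37.3 against 73.6 and 63.3 (-0.90, SE 0.11), and *EBF2*, an F-box protein that marks EIN3 and EIL1 for degradation, had 24.3 and 27 against 75.0 and 63.8 (-1.40, SE 0.17). The 2 higher genes were *ETP2*, an F-box protein that acts on EIN2, and *OSR1*, an organ size gene, with log2 fold changes of 0.57 and 0.88.

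More ET synthesis genes fell than rose. Of 13 tested, 7 were lower and 1 higher, where 18.7% and 17.0% of all tested genes were. The ACC oxidase gene *ACO4* had 13.3 and 16.8 rescaled TPM in *ein6-1 een-1* against 113 and 87.2 in *ein6-1* (log2 fold change -2.65, SE 0.18, adjusted p = 4.2e-08). *ACS7*, an ACC synthase, had 11.1 and 8.49 against 3.37 and 3.10 and was the member that rose (1.34, SE 0.19). Of 16 tested ET-related transcription factors, 7 fell and 0 rose, or 4 without rescaling. They include the 4 ET-response RAV-type factors *RAV2* (-2.25), *TEM1* (-1.78), *EDF3* (-1.75) and *RAV1* (-1.28). *RAV2* had 1.49 and 2.25 against 15.4 and 10.3.

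**Figure D3:**
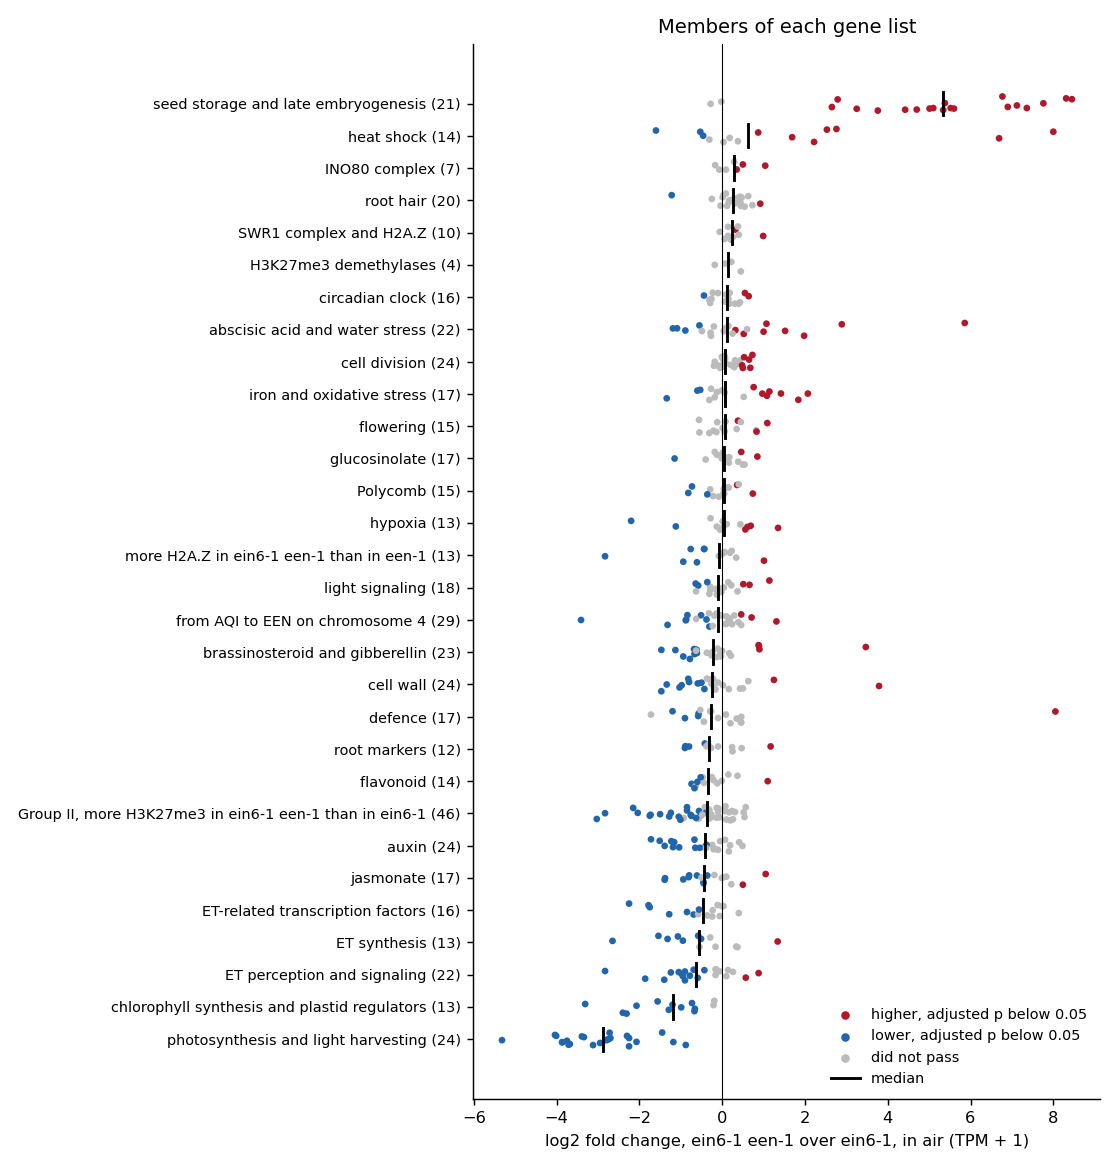
log2 fold change of each tested gene on each list, *ein6-1 een-1* over *ein6-1* in air (rescaled TPM plus 1), with lists ordered by their median and the number of tested genes in parentheses. Red points were higher and blue points lower at an adjusted p below 0.05, grey points did not pass, and black bars are medians. The seed list has a median of 5.34 and the photosynthesis list one of -2.87, the highest and lowest shown.

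The study defined 54 genes, its Group II, as carrying more H3K27me3 in *ein6-1 een-1* than in *ein6-1*, from ChIP-seq that was not analysed here. Of these, 46 could be tested, and 19 (41.3%) were lower and 0 higher in *ein6-1 een-1*, with a median of -0.36. Over all tested genes, 18.7% were lower and 17.0% higher. *CDPK9*, a calcium-dependent protein kinase, had 0.764 and 1.25 rescaled TPM against 16.5 and 14.2 in *ein6-1* (log2 fold change -3.03, SE 0.15, adjusted p = 2e-09), a larger decrease than that of *EIN2*. *AT1G01630* had 20.3 and 23.5 against 105 and 95.5 (-2.15, SE 0.12), and the phosphate transporter *PHT4;1* had 0.860 and 1.21 against 6.83 and 7.83 (-2.04, SE 0.16). *NAC001*, a NAC-family transcription factor, had 3.91 and 4.31 against 15.9 and 16.0 (-1.73, SE 0.17). *EDF3* and *RAV1*, named above, are members too. The other 27 did not pass in either direction. The list is the study's own choice, made on the same genotypes.

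Of the 46 tested Group II genes, 30 (65.2%) hold a REF6 motif in their first 1500 bases, and so do 11 of the 19 lower ones (57.9%), beside the 48.4% of all tested genes given above. Sites of *CDPK9*, *AT1G01630* and *RAV1*, all in coding exons, are shown because these genes fell most or encode ET-response factors. They run 5′ to 3′ on the strand that carries the motif:
CDPK9, chr5:7951906-7951935 (-): gactttggcctCTCTGTTTtctgcacacca
AT1G01630, chr1:229545-229574 (-): tcatttgcaatCTCTGCTTctggtatgtgc
RAV1, chr1:4542822-4542851 (-): gacgccgtttaCTCTGCTCtaactcttcgt
Only the first 1500 bases of each gene were searched.

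A second list, from H2A.Z ChIP-seq not analysed here, holds genes with more H2A.Z in *ein6-1 een-1* than in *een-1*. Of its 13 genes that could be tested, 6 were lower and 1 higher in *ein6-1 een-1* than in *ein6-1*. Of all tested genes, 18.7% were lower and 17.0% higher. *EIN2* was the lowest, and *KEA1*, a potassium-proton antiporter of the chloroplast envelope, had 6.78 and 6.55 rescaled TPM against 14.8 and 12.6 (log2 fold change -0.94, SE 0.15). *AAPT2*, which with *EIN2* is on both lists, had 34.0 and 29.6 against 54.7 and 53.7 (-0.76, SE 0.13). The gene that rose was *AGD9*, an ARF GTPase-activating protein, with 130 and 129 against 66.9 and 61.1 (1.01, SE 0.10). Without rescaling 3 were lower, and the median, -0.08, became 0.10.

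**Figure D4:**
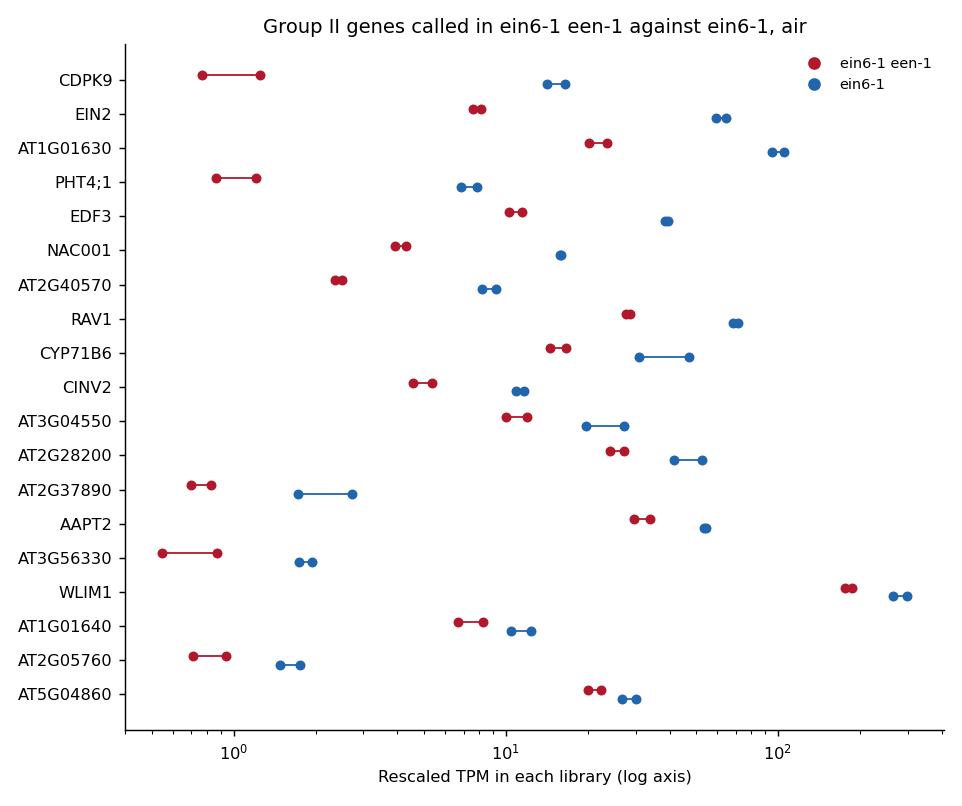
Rescaled TPM (log axis) of the 19 Group II genes called in *ein6-1 een-1* against *ein6-1* in air, 1 gene per row with the 2 libraries of *ein6-1 een-1* above and the 2 of *ein6-1* below, joined by a line. In each row both *ein6-1 een-1* points lie left of both *ein6-1* points, for example in *CDPK9* (0.764 and 1.25 against 16.5 and 14.2) and *AAPT2* (34.0 and 29.6 against 54.7 and 53.7).

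On the ABA and water stress list, 8 of 22 tested genes were higher, beside 17.0% of all tested genes. Another 4 were lower, close to the 18.7% of all tested genes. *RAB18*, a dehydrin of drying seeds, had 1371 and 1573 rescaled TPM in *ein6-1 een-1* against 19.5 and 30.3 in *ein6-1* (log2 fold change 5.86, SE 0.40, adjusted p = 4.4e-08). *CYP707A2*, which breaks ABA down in seeds, had 8.01 and 8.47 against 0.110 and 0.399 (2.89, SE 0.22), and *DREB2A*, a drought and heat response factor, had 23.4 and 21.5 against 5.21 and 4.66 (1.98, SE 0.15). On the other side, *COR47*, a dehydrin, had 825 and 714 against 1774 and 1508 (-1.09, SE 0.14), and *ABI1*, a phosphatase that restrains ABA signaling, had 59.1 and 49.5 against 113 and 90.7 (-0.89, SE 0.13). When *ein6-1 een-1* replicate 1 was left out, 5 members of this list were higher.

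Heat-shock genes rose in 7 of 14 cases and fell in 3, or 1 without rescaling or without *ein6-1* air replicate 1. Over all tested genes, 17.0% were higher and 18.7% lower. *HSP17.4*, a small heat-shock protein, had 218 and 286 rescaled TPM in *ein6-1 een-1* against 2.31 and 0.787 in *ein6-1* (log2 fold change 6.69, SE 0.34, adjusted p = 2.1e-09). The chaperones *HSP90.1* (24.1 and 28.1 against 3.02 and 2.93), *HSP70* (62.2 and 64.1 against 9.69 and 10.6) and *HSP101* (17.2 and 20.2 against 3.69 and 2.78) rose less, with log2 fold changes of 2.76, 2.53 and 2.22. Heat-shock factors went both ways. *HSFA7A* had 3.75 and 3.47 against 17.1 and 9.80 (-1.60, SE 0.20), and *HSFB1* fell by 0.46 on the log2 scale. *HSFA2* had 3.87 and 2.69 against 0.16 and 0.493 (1.69, SE 0.23), and *HSFB2A* did not pass.

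Of 24 auxin genes, 12 were lower and 0 higher, where 18.7% and 17.0% of all tested genes were. Among the lower were the early auxin-response genes *IAA5* (1.58 and 2.64 rescaled TPM against 9.03 and 9.17, log2 fold change -1.72), *IAA6* (-1.51) and *IAA19* (142 and 154 against 366 and 329, -1.23). In brassinosteroid and gibberellin genes, 8 of 23 were lower, or 4 without rescaling, and 4 were higher, near the share of all tested genes. *BES1*, a brassinosteroid transcription factor, had 41.3 and 36 against 122 and 97.4 (-1.47, SE 0.13). *RGL2*, the DELLA repressor that holds back germination, had 81.0 and 77.8 against 4.97 and 7.83 (3.47, SE 0.19, adjusted p = 4.8e-09). The seed list rose in the same libraries, and its part in the *RGL2* difference was not tested.

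Cell-wall genes showed 9 lower and 2 higher of 24, beside 18.7% and 17.0% of all tested genes. *XTH4* had 774 and 788 rescaled TPM in *ein6-1 een-1* against 2418 and 1949 in *ein6-1* (log2 fold change -1.47, SE 0.16), and the expansin *EXPA8* had 224 and 241 against 622 and 557 (-1.34, SE 0.14). *EXPA2*, an expansin of germinating seeds, had 210 and 201 against 13.4 and 14.5 (3.79, SE 0.28, adjusted p = 1.1e-07). Of 17 jasmonate genes, 9 were lower and 2 higher, but 3 were lower without rescaling and 4 without *ein6-1* air replicate 1. *MYC2*, the main jasmonate transcription factor, had 54.1 and 51.0 against 94.7 and 91.2 (-0.81, SE 0.12). Root markers were lower in 4 of 12 cases and higher in 1. The 4 were the Casparian strip genes *CASP1* to *CASP4*, and the higher one was *WOX5* (7.43 and 6.55 against 2.85 and 2.25, 1.17, SE 0.21). The other 7 did not pass. The sum over the 16 root markers was 1437 and 1462 against 2236 and 1886, with at most 2 genes at 0 in any of these libraries. Its largest part was *TIP2;3* (668 and 683 against 949 and 775), which did not pass (-0.34), so the sum says little about the other markers.

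Of 17 iron and oxidative stress genes, 7 were higher and 3 lower, or 1 lower without rescaling, without *ein6-1* air replicate 1 or without *ein6-1 een-1* replicate 1. Over all tested genes, 17.0% were higher and 18.7% lower. *FRO2*, the root ferric chelate reductase, had 4.31 and 4.80 rescaled TPM in *ein6-1 een-1* against 0.260 and 0.378 in *ein6-1* (log2 fold change 2.07, SE 0.22), and *NAS4*, a nicotianamine synthase, had 53.7 and 57.3 against 13.6 and 16.1 (1.84, SE 0.16). The iron store *FER1*, a ferritin, had 143 and 158 against 384 and 382 (-1.34, SE 0.11). In hypoxia genes, 4 of 13 were higher (2 without *ein6-1* air replicate 1 or *ein6-1 een-1* replicate 2) and 2 lower. The 4 higher genes were *ADH1*, *HB1*, *RAP2.2* and *PCO1*, with log2 fold changes of 1.35, 0.69, 0.61 and 0.56. The largest change was the decrease of *RAP2.3*, a group VII ERF factor, which had 19.9 and 23.5 against 119 and 89.6 (-2.20, SE 0.20).

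Of 7 tested INO80 complex genes, 3 were higher and 0 lower. *INO80*, the ATPase of the complex, had 28.3 and 25.9 rescaled TPM in *ein6-1 een-1* against 13.0 and 12.3 in *ein6-1* (log2 fold change 1.04, SE 0.21, adjusted p = 0.0012). *ARP4* and *RIN1* had log2 fold changes of 0.50 and 0.35. *INO80* was also higher in *een-1* (21.3 and 22.5) than in L*er* (9.87 and 12.3). Shares on the other chromatin lists were near or below those of all tested genes (17.0% higher, 18.7% lower). Among SWR1 and H2A.Z genes 2 of 10 were higher and 0 lower, among H3K27me3 demethylases 0 of 4 passed (*REF6* included), and among Polycomb genes 2 of 15 were higher and 3 lower, or 0 lower without rescaling and 1 without *ein6-1 een-1* replicate 1. *RING1B* and *BMI1A*, subunits that ubiquitinate H2A, fell by 0.82 and 0.73 on the log2 scale, and *RING1A* rose by 0.74.

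Counts on the remaining lists stand beside 17.0% higher and 18.7% lower over all tested genes. They were 3 higher and 3 lower (0 lower without rescaling) of 18 light signaling genes, 3 and 0 of 15 flowering genes, 2 and 1 of 16 clock genes, 1 and 4 of 14 flavonoid genes, 2 and 1 of 17 glucosinolate genes, and 1 and 4 of 17 defence genes. No flavonoid or clock gene was lower without rescaling or without *ein6-1* air replicate 1, and 2 defence genes were. *DET1*, a repressor of photomorphogenesis, was the largest change among the light genes, with 35.2 and 29.9 rescaled TPM in *ein6-1 een-1* against 13.7 and 14.7 in *ein6-1* (log2 fold change 1.14, SE 0.14). *TT4*, the chalcone synthase that opens the flavonoid pathway, had 9.69 and 15.0 against 21.4 and 20.3 (-0.74, SE 0.20). The largest change on the flavonoid list went the other way. It was that of *TT7*, the 1 higher gene, with 5.82 and 4.58 against 1.85 and 1.92. The salicylic acid response factor *WRKY70* had 3.79 and 3.05 against 9.20 and 9.04 (-1.20, SE 0.17), and the 1 higher gene of the defence list was *PDF1.1*, given above.

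The effect of *een-1* without EIN6 was then tested against its effect with EIN6, as (*ein6-1 een-1* minus *ein6-1*) minus (*een-1* minus L*er*) on the log2 scale in air. This difference was positive for 1542 genes (7.49%) and negative for 1451 (7.05%), 14.5% in all. Leaving out *ein6-1 een-1* air replicate 1 gave 1866 genes and leaving out L*er* air replicate 1 gave 1892. Of the 3491 genes higher in *ein6-1 een-1* than in *ein6-1*, 1093 (31.3%) also had a positive difference of the effects, and of the 3859 lower genes 1077 (27.9%) had a negative one, though both share the *ein6-1 een-1* and *ein6-1* libraries. The seed list had 19 of 21 positive and the photosynthesis list 24 of 24 negative.

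Named genes showed both kinds of effect. *CRA1* differed by 8.43 (SE 0.45, adjusted p = 7.3e-08), because its difference in *een-1* against L*er* was -0.13, and *GUN5* differed by -4.04 (SE 0.27), since it was higher by 0.73 in *een-1* than in L*er*. For *AQI* the difference of the effects (-0.41, SE 0.18, adjusted p = 0.14) did not pass, nor did it for *AT2G40570*, a Group II gene (-0.24, SE 0.20, adjusted p = 0.48), or for *INO80* (0.11, SE 0.29, adjusted p = 0.84). A p above the threshold does not show that the effects were equal.

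Root hair and cell division genes made a contrast of the opposite kind. Of 20 root hair genes, 10 were lower in *een-1* than in L*er*, whereas 1 was lower and 1 higher in *ein6-1 een-1* than in *ein6-1*, or 5 higher without rescaling, 7 without *ein6-1* air replicate 2 and 0 without *ein6-1* air replicate 1 or either *ein6-1 een-1* library. The difference of the effects was positive for 9 of them, *LRX1*, a cell-wall protein of root hairs, among them (1.62, adjusted p = 0.0093). *LRX1* had 54.5 and 50.6 rescaled TPM in *ein6-1 een-1* against 21.5 and 34.5 in *ein6-1*. Of 24 cell division genes, 17 were higher in *een-1* than in L*er* and 6 were higher in *ein6-1 een-1* than in *ein6-1*, or 2 without *ein6-1* air replicate 1 and 3 without either *ein6-1 een-1* library. The difference was negative for 6. Over all tested genes it was positive for 7.49% and negative for 7.05%. In *een-1* against L*er*, 14.0% of all tested genes were lower and 10.7% higher. In *ein6-1 een-1* against *ein6-1* the shares were 18.7% and 17.0%. *CDC20.1*, an activator of the anaphase-promoting complex, had 15.0 and 15.5 against 9.14 and 12.0 (log2 fold change 0.50), and 1.18 in *een-1* over L*er*, with a difference of -0.68 (adjusted p = 0.046).

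**Figure D5:**
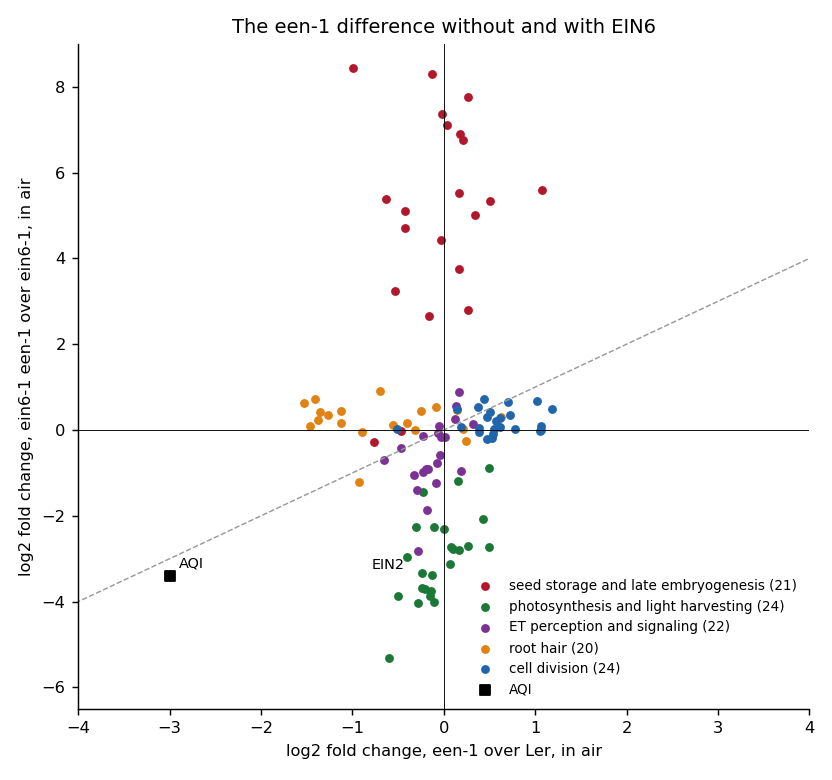
log2 fold change of *ein6-1 een-1* over *ein6-1* (vertical axis) against that of *een-1* over L*er* (horizontal axis), both in air, for genes of 5 lists (number of tested genes in parentheses) and *AQI*. The dashed line marks equal effects. Seed genes reach 8.45 (*SESA5*, -0.99 on the horizontal axis) and photosynthesis genes -5.32 (*CAB1*, -0.60), and *AQI* lies near the line at -3.41 and -3.00.

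The same genotypes after 4 hr of ET, in other libraries that share only the estimate of spread with the air comparison, gave 4072 higher and 4150 lower genes (19.8% and 20.2%). Of the genes higher in air, 2102 were also higher after ET (60.2% of the air genes, 51.6% of the ET genes) and 34 were lower. Of the genes lower in air, 2472 were also lower after ET (64.1% and 59.6%) and 154 were higher. *EIN2* had 9.02 and 9.68 rescaled TPM in *ein6-1 een-1* against 104 and 54.3 in *ein6-1* after ET (log2 fold change -2.88, adjusted p = 2.9e-08), and the lower *ein6-1* value is from the library with 30.3% rRNA. The seed list had 19 genes higher and 2 lower, with a sum of 12920 and 12278 against 517.3 and 758.2, and the photosynthesis list had 24 lower. *ACO4* separated further after ET, at 27.1 and 29.3 against 960 and 884 (-4.98), while *IAA5*, at 5.68 and 6.46 against 5.70 and 6.43, did not pass there (adjusted p = 1).

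With EIN6 intact, 2196 genes were higher and 2879 lower in *een-1* than in L*er*. Of the genes higher in *ein6-1 een-1* than in *ein6-1*, 910 were also higher in *een-1* (26.1% and 41.4%) and 154 were lower there. Of the lower genes, 1381 were also lower in *een-1* (35.8% and 48.0%) and 148 were higher. Leaving out L*er* replicate 1, L*er* replicate 2, *een-1* replicate 1 or *een-1* replicate 2 brought the *een-1* calls to 2049, 2728, 3309 and 1750 genes. The *een-2* allele in Col-0 gave 762 higher and 1064 lower genes (3.78% and 5.28% of 20152). Among genes tested in both tables, 316 were higher in both *ein6-1 een-1* and *een-2* (9.46% of 3339 and 42.1% of 750), and 577 were lower in both (15.2% of 3806 and 55.9% of 1032). Of the genes higher in *ein6-1 een-1*, 62 were lower in *een-2*, and of the lower ones 39 were higher there.

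In *een-2*, 14 of 21 seed genes were higher and 1 lower, and 22 of 24 photosynthesis genes were lower. Over all genes tested there, 3.78% were higher and 5.28% lower. *CRA1* had 476 and 357 rescaled TPM in *een-2* against 9.25 and 6.09 in Col-0 (log2 fold change 5.60, adjusted p = 6e-06), and *CAB1* had 643 and 760 against 2375 and 3964 (-2.13, adjusted p = 0.0029). *EIN2*, at 56.8 and 56.4 in *een-2* against 61.8 and 70.3 in Col-0, did not pass (-0.22, adjusted p = 0.28), and *AQI*, which *een-2* leaves intact, had 124 and 104 against 136 and 138 (-0.27, adjusted p = 0.19). *EEN* fell to 0.311 and 0.947 in *een-2*, against 49.7 and 39.1 in Col-0. The *een-2* calls were 381 without *een-2* replicate 2, 447 and 717 without Col-0 replicates 2 and 1, and 1202 and 1194 without each of the *ino80-8* libraries that share its fit.

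Genes defined by ET or by *EIN2* are set here against the 17.0% of all tested genes that were higher and the 18.7% that were lower. Of 1811 genes that ET raised in L*er*, 555 were higher and 467 lower in *ein6-1 een-1* than in *ein6-1* in air, and of 2635 that ET lowered, 330 were higher and 970 lower. Of 2368 genes higher in *ein2-45* than in L*er*, 242 were higher and 750 lower, and of 2381 genes lower in *ein2-45*, 494 were higher and 621 lower. The photosynthesis genes are an example of the unlike direction, as 23 of 24 were higher in *ein2-45* than in L*er* and 24 of 24 lower in *ein6-1 een-1* than in *ein6-1*. The summed seed list was 497.5 and 771.8 rescaled TPM in *ein2-45* air libraries.

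The inverted stretch of *een-1* spans 82.9 kb from *AQI* to *EEN* in TAIR10.1, and 29 of its 35 genes could be tested. Of these, 8 with *AQI* (27.6%) were lower in *ein6-1 een-1* and 3 (10.3%) higher, beside 18.7% and 17.0% of all tested genes. Without rescaling, without *ein6-1* air replicate 1 or without *ein6-1 een-1* replicate 1, 5 were lower, and 1 was higher without *ein6-1* air replicate 1 or *ein6-1 een-1* replicate 2. *EXLA2*, an expansin-like gene, had 26.0 and 28.4 rescaled TPM against 70.3 and 68.7 in *ein6-1* (log2 fold change -1.32, SE 0.13), and *STY46*, a kinase of chloroplast protein import, had 79.7 and 74.9 against 156 and 124 (-0.84, SE 0.14). *IYO*, a regulator of transcript elongation and cell differentiation, had 9.07 and 9.24 against 2.77 and 3.48 (1.31, SE 0.23). Of 106 windows of 1 Mb with 50 or more tested genes, the share called ran between 28 and 48.5%, and it was 39.4% in the window from 17 to 18 Mb of chromosome 4, which holds most of the inversion.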

How the data were processed

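Per the study's methods, reads were mapped to TAIR10 with STAR 2.6.0c and quantified with RSEM 1.3.0. The labels name the same mapper and genome, but give RSEM versions that differ between samples, from 1.3.0 to 1.3.27. The deposited values are TPM computed by the authors for 33602 genes, of which 32835 IDs have a TAIR10.1 entry. TPM holds no read counts, so depth is unknown. Left out were 4 columns of the second table that hold L*er* and *een-1* again.

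TPM was divided by median-of-ratios factors within each table. Genes reaching 1 TPM in 2 or more libraries were tested on log2(value + 1) with limma 3.58.1 (R 4.3.3, variance trend, Benjamini-Hochberg adjustment). All 20 libraries of the first table (10 groups) entered one model, and the 8 of the second (4 groups) another, so levels set across the tables were normalized separately. With 2 libraries per group, p-values rest on the replicate spread pooled over all groups of a table and drawn toward that of other genes. They do not measure the spread of the compared groups alone. The model was tested on simulated data.

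The members and gene lists were chosen with earlier results of these data known. Lists come from general knowledge, except Group II and the H2A.Z list, whose gene identifiers are the study's, and 11 list names matched no gene. Named genes are *EIN2*, *REF6*, *EEN* and *AQI*, the 10 largest increases and decreases of the comparison and of the difference between effects (called, groups not overlapping, a group mean of at least 5), called Group II and H2A.Z genes, and up to 6 per list, called genes first by size. Some list genes of smaller change, such as *GLK2*, *CTR1*, *COR47*, *ABI1*, *MYC2* and *CDC20.1*, were picked for their role after their values were seen.

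Replicate numbers were checked for pairing. The deviations of the compared groups correlated at 0.0773. Of 45 group pairs, 11 exceeded 0.1 and 5 were under -0.1, so the numbers were not taken as pairs. These correlations run over all tested genes and cannot show a replicate effect limited to some of them. Alternatives were TPM as deposited, rRNA and organelle genes left out, pseudocounts of 0.1 and 5, no minimum and a minimum of 5 TPM, fewer groups in the model, a replicate block, and each library left out. Plots were made in matplotlib 3.10.9 under Python 3.11.15.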

Additional observations from a re-analysis of the deposited data

Results flagged for a closer look

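The effect of *een-1* without EIN6 differed from its effect with EIN6 in 2993 genes in air (adjusted p below 0.05, limma, test of the difference itself). Among the genes named by the rules above, the difference of the log2 effects was positive for *SESA5* (9.44), *CRA1* (8.43), *LCR67* (8.04), *HSD1* (8.03), *AT1G14950* (7.87), *CRU3* (7.49), *M17* (7.38), *PAP85* (7.35), *AtMT4b* (7.31), *HSP17.6A* (7.26) and *XTH25* (6.74). In *een-1* over L*er*, the log2 fold changes of these genes ran between -0.99 and 0.75, and none passed the test. *AtMT4b*, a seed metallothionein, had 226 and 301 rescaled TPM in *ein6-1 een-1* against 1.45 and 2.00 in *ein6-1*, and 26.0 and 61.0 in *een-1* against 75.3 and 58.2 in L*er*. A smaller positive difference was found for *AGD9* (0.97).

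The difference was negative for *FSD1* (-5.82), *AT5G57760* (-4.74), *CAB1* (-4.72), *GRP9* (-4.46), *AT2G05510* (-4.31), *RBCS1B* (-4.30), *AZI1* (-4.10), *GUN5* (-4.04), *CA2* (-4.0), *PSAG* (-3.90), *CAB3* (-3.88) and *LHCA3* (-3.75). In *FSD1*, *een-1* went the other way, with 20.8 and 34.6 rescaled TPM in *een-1* against 8.05 and 8.84 in L*er*, while *ein6-1 een-1* had 1.16 and 2.19 against 33.7 and 72.2 in *ein6-1*. *RBCS1B*, a small subunit of Rubisco, had 6.58 and 13.8 in *ein6-1 een-1* against 182 and 152 in *ein6-1*. *GRP9*, a glycine-rich protein, had 1.66 and 3.94 against 48.5 and 59.4.

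Of 46 tested Group II genes, the difference was negative for 13 and positive for 1, beside 7.05% and 7.49% of all tested genes. Among the Group II and H2A.Z genes that were called in *ein6-1 een-1* against *ein6-1*, it was negative for *EIN2* (-2.55), *AT3G04550* (-1.96), *EDF3* (-1.45), *RAV1* (-1.35), *KEA1* (-1.24), *CDPK9* (-1.18), *CINV2* (-1.11), *AT3G56330* (-1.04), *AT1G01630* (-0.94), *PHT4;1* (-0.85), *NAC001* (-0.83), *AAPT2* (-0.59) and *OPR3* (-0.53). The other Group II genes, which were not called in that comparison, were *AT5G46730* (-1.48) and *AT1G10850* (-0.48), and the positive one was *AGAL1* (1.05). *CDPK9*, *AT1G01630* and *PHT4;1* also fell in *een-1* against L*er*, by 1.86, 1.22 and 1.19, so part of their decrease was present with EIN6 intact.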

How the results depend on the processing

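For *ein6-1 een-1* against *ein6-1* in air, the count of called genes stayed within 1.5 times of 7350 in each setting except one left-out library. It was 5300 with TPM as deposited, 7380 without rRNA and organelle genes, 7258 and 7386 with pseudocounts of 0.1 and 5, 7210 without a minimum, 6635 with a minimum of 5 TPM, 6156 with only the compared groups and 7865 with only the air groups. Rescaling moved the median of all genes by 0.162. With a replicate block it was 7506 (3546 higher, 3960 lower), but the numbers were not taken as pairs. Leaving out 1 library at a time gave 4319 to 8372 genes for this comparison, 1866 to 3743 for the difference between effects, 6001 to 9094 after ET, 1750 to 6164 for *een-1* and 381 to 1825 for *een-2*. With only the compared groups, 4432 genes were called after ET and 697 in *een-2*, and 1213 in *een-2* without a minimum. Where a left-out library leaves a group with 1, that library is assumed to vary like the others.

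Of 49 named genes called, 40 were called in every alternative. Of 1476 values, which cover 51 named genes, 33 lost their call. The genes that lost it are *APK2B*, *AT1G01640*, *AT2G05760*, *AT3G56330*, *AT4G39366*, *AT5G04860*, *ERDL6*, *OPR3* and *WLIM1*. Among values called in the main fit or in the alternative, 0 changed sign. Sign changes of values called in neither were not counted. Without depth, the error of genes near 1 TPM cannot be set from counts.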
